A study of Mus musculus with 8 samples.

Results

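The motile cilia genes described here are 34 listed mouse genes that encode the moving cilium of multiciliated cells or its transcriptional regulators, matched by annotated gene symbol. Each gene was represented by 1 probe set, a group of short array probes for 1 transcript, taken as the probe set with the highest mean signal in its table. Of the 34 genes, 33 were found among the 18193 named genes of the array used at E18.5 (embryonic day), and 30 of these were among the 12623 genes tested there. Dnah5, Spag17 and Spata18 fell below the filter on low signal, and Sntn was not matched. On the older array used at E11.5, 9 of the 34 were found among 8251 named genes.

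Gene expression was measured on 8 one-colour Affymetrix arrays, of total RNA from embryonic mouse tissue. The E18.5 part compared 3 arrays of control lung, labelled single transgenic and SP-C/MIA control, with 3 arrays of bitransgenic lung, labelled double transgenic and SP-C/MIA overexpressor, all of strain FVB/N. The question of the series was how misexpression of MIA, a secreted protein, alters lung gene expression, and, on the E11.5 arrays, which genes differ between lung and trachea. The E11.5 part held 1 FVB/N lung array and 1 trachea array. The labels do not say which transgene the controls carried, so both groups share at least that transgene, and SP-C is the name of surfactant protein C, whose promoter is active in distal lung epithelium. The design text calls the E18.5 embryos littermates, but no label says that each array held a lung of its own embryo, so the p-values measure the spread between these samples, which may be technical. Whole lung was measured, so fewer ciliated cells and less RNA per cell cannot be told apart.

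Multiciliated cells line the conducting airways and carry many motile cilia that sweep mucus towards the throat. Their cilia are built around an axoneme of microtubule doublets, on which dynein arms generate sliding, while radial spokes, nexin links and a central apparatus shape the beat. The programme is switched on by a small set of regulators, among them the forkhead factor Foxj1 and the RFX factors, after the cell has amplified its centrioles.

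Values are MAS5 signals, a linear brightness scaled so that each array had the same trimmed mean. The table median at E18.5 was 434 and the medians of single arrays ran from 415 to 464. In 24 of the 33 genes every E18.5 array lay above the table median, in 3 every array lay below it, and in 6 the arrays lay on both sides. The deposited tables hold no detection calls, so whether a low signal exceeds background is unknown, and the number of arrays limits the precision. Mia, the misexpressed gene, read 1071, 1070 and 734 in controls 1, 2 and 3 and 31400, 42670 and 41550 in bitransgenic lungs 1, 2 and 3. Its log2 change of 5.21 (limma adjusted p = 1.15e-06) matched the labels of all 6 arrays. The arrays that correlated least with the other E18.5 arrays, on average, were control 3 at 0.956 and bitransgenic 3 at 0.965. The Actb 3' to 5' signal ratio, a measure of RNA quality, was 1.28 to 1.5 in controls and 1.51 to 1.65 in bitransgenic lungs. It thus moved with the group, though control 1 at 1.5 and bitransgenic 2 at 1.51 nearly met. The same ratio for Gapdh was 0.781 to 0.921 in controls and 0.921 to 1.08 in bitransgenic lungs, ranges that touched. The part of RNA quality in the results was not tested beyond a fit with the Actb ratio as a covariate.

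None of the 30 tested motile cilia genes rose or fell at E18.5 by limma at an adjusted p of 0.05, with the adjustment made over all 12623 genes. Over all genes 85 were called, or 0.673%, of which 30 were higher (0.238%) and 55 lower (0.436%). At an unadjusted p under 0.05 the limma fit held 2 of the 30 genes (6.67%), Ccno and Cfap52, against 1219 of all genes (9.66%). A limma fit with array weights, which gives arrays that stand apart less say, called 2 of the 30, Ccno and Rfx2, but it called 1337 of all genes, or 10.6%. Control 2 carried a weight of 6.26 in that fit, beside 0.725 for control 1 and 0.223 for control 3. The estimation of the weights stopped short of its tolerance. The median log2 change of the 30 genes was 0.06 beside 0.01 over all genes tested, with 19 positive and 11 negative values, and it was -0.03 beside 0.00 with array weights.

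The changes of the motile cilia genes were small on the log2 scale used. They ran from -0.25 for Hydin and Rfx3 to 0.68 for Ccno, and 21 of the 30 lay within 0.2 of 0 on the log2 scale. The 95% interval of the change stayed within 2-fold in either direction for 27 genes and within 1.5-fold for 15. The 3 intervals that reached past 2-fold were those of Ccno, Cfap52 and Rfx2, each on the higher side only, while the lower end for Spag6l was -0.99. These bounds hold for the 1 probe set chosen per gene, and a second Dnali1 probe set had an interval of -1.07 to 0.01. They also hold with a pseudocount of 86.4 added before the logarithm, which understates the change of dim genes. With no pseudocount the change was -0.27 rather than -0.19 for Spag6l and 0.66 rather than 0.50 for Rfx2. In 4 of the 30 genes (13.3%) the groups did not overlap, with Ccno, Cfap52 and Ak7 higher and Cfap206 lower in all bitransgenic lungs. Over all genes the groups did not overlap in 2068 (16.4%), 8.84% higher and 7.54% lower, so the share among the cilia genes lay near the background.

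**Figure D1:**
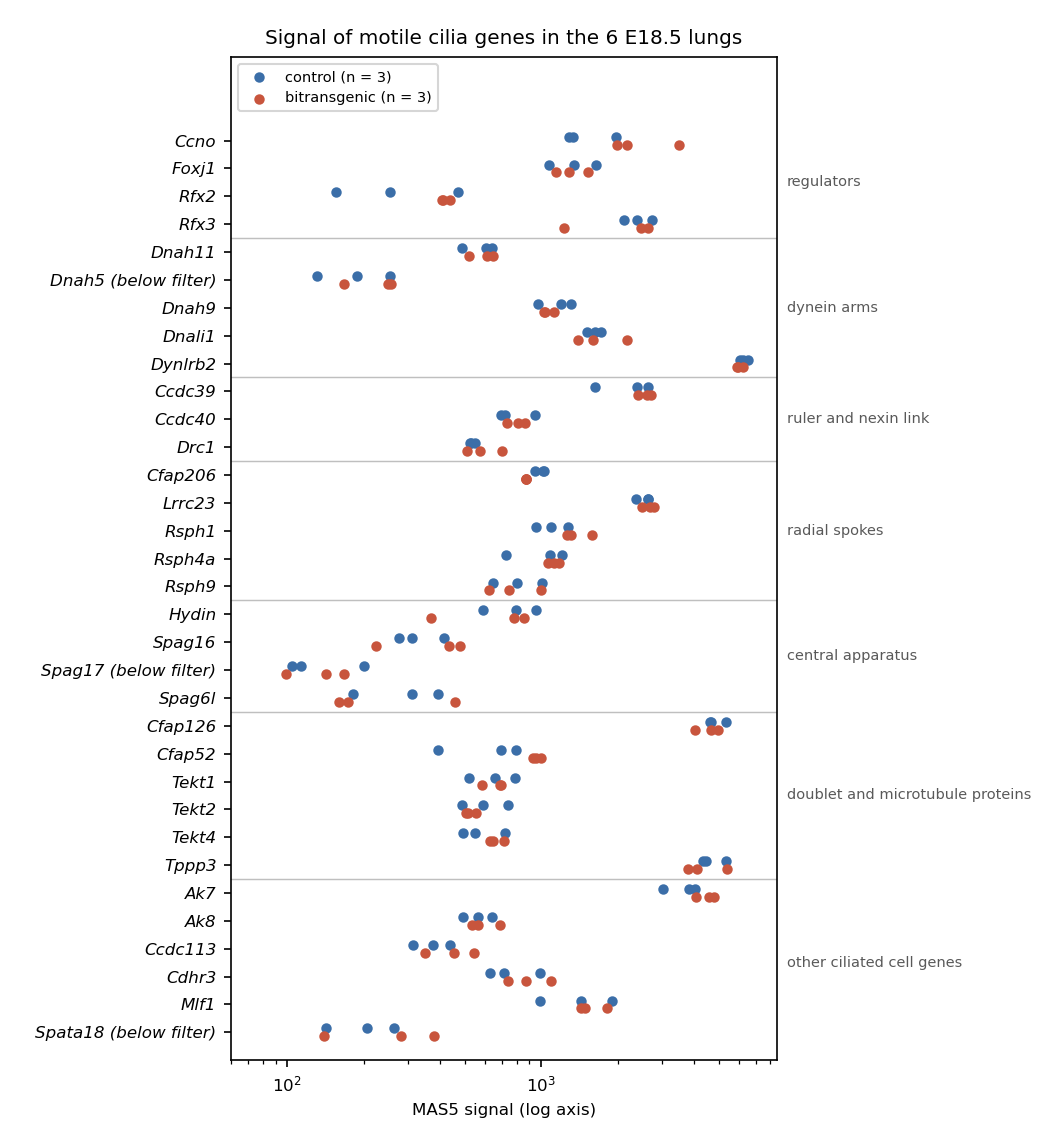
MAS5 signal on a log axis of the 33 motile cilia genes found on the E18.5 array, with 1 point for each of 3 control (blue) and 3 bitransgenic (red) lungs, ordered by the part of the cilium that each gene encodes. The groups lie on the same range for most genes, and separate for Ccno, Cfap52 and Ak7 (bitransgenic higher) and Cfap206 (bitransgenic lower).

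Among the regulators, Ccno was the gene with the highest log2 change. Ccno encodes cyclin O, which multiciliated cells need to amplify their centrioles. Its signal was 1286, 1332 and 1980 in controls 1, 2 and 3 and 2171, 1983 and 3480 in bitransgenic lungs 1, 2 and 3. All bitransgenic lungs lay above all controls, but control 3 and bitransgenic 2 were nearly equal, and bitransgenic 3 stood well above the rest. The log2 change was 0.68 (SE 0.24, 95% interval 0.15 to 1.22, n = 3 per group) with a limma adjusted p of 0.377, which did not pass the threshold. Without bitransgenic 3 the change was 0.44, without control 3 it was 0.87, and the limma adjusted p ran from 0.158 to 0.764 over the 6 fits that each left out 1 array. With array weights the change of Ccno was 0.66 at a limma adjusted p of 0.00944, and without control 3 and bitransgenic 3 it was 0.63 at 0.0577.

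Foxj1, the forkhead factor that directs motile cilium formation, overlapped between the groups and was not called. Its signal was 1078, 1349 and 1652 in the controls, compared with 1288, 1142 and 1527 in the bitransgenic lungs, so every bitransgenic value lay inside the control range. The log2 change was -0.03 with a 95% interval of -0.45 to 0.39 (limma adjusted p = 0.98, n = 3 per group). Leaving out control 3 turned its sign, to 0.11, as did leaving out bitransgenic 2, to 0.06.

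The RFX factors bind X-box sequences in ciliary promoters, and their 2 genes here, Rfx2 and Rfx3, differed in sign. Rfx2 read 255, 156 and 470.1 in the controls, compared with 411, 439 and 408.5 in the bitransgenic lungs. The bitransgenic lungs were close together and the controls spread around them, with control 3 highest of all 6. The log2 change of Rfx2 was 0.50 (95% interval -0.17 to 1.17, limma adjusted p = 0.68, n = 3 per group). It was 0.22 without control 2 and 0.81 without control 3, and 0.99 at an adjusted p of 0.00917 with array weights, which gave control 2 a weight of 6.26 and control 3 a weight of 0.223. The 3 other Rfx2 probe sets lay below the filter, with log2 changes of -0.23, 0.24 and 0.11. Rfx3 read 2735, 2391 and 2113 in the controls, compared with 2466, 2641 and 1231 in the bitransgenic lungs. Only bitransgenic 3 lay below the controls, and the log2 change of -0.25 (95% interval -0.83 to 0.34) became 0.09 without it. A second Rfx3 probe set gave -0.16.

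The promoters of the motile cilia genes were read for letters linked to these factors, in RefSeq windows of 300 bases (mouse build GRCm38.p6, 250 bases before to 50 after each transcript start). A window was matched for 30 of the 34 genes, with 35 windows in all because some genes have several starts. The letters GTTGCC, part of the site that RFX factors bind, occurred on either strand in 17 of 35 windows (48.6%) and in 16 of 30 genes (53.3%). Over all 32851 windows of the table the share was 12.5%, and over all 27025 genes it was 14.1%. The full X-box-like pattern, GTTNCC and then GGNAAC after 2 free bases, occurred in 0 of the 35 windows and in 0.451% of all windows. GTTGCC can lie inside that pattern as its left part. The forkhead letters TGTTTAC occurred in 3 windows (8.57%), of Ak7, Mlf1 and Sntn, against 3.65% of all windows. The median GC content of the windows was 54.3% for the cilia genes and 52.7% for all. A match is a run of letters and was not tested as a binding site.

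The windows of 5 genes are shown because the expression results turn on them or because they hold the letters searched. They run 5′ to 3′ on the strand of the gene, in lower case with matched letters in capitals. Ccno, Cfap52 and Ak7 are the genes whose bitransgenic lungs all lay higher, Rfx2 is itself an RFX gene, and Mlf1 holds both GTTGCC and TGTTTAC. The windows lie for Ccno at chr13:112987552-112987851 (plus strand), for Rfx2 at chr17:56830959-56831258 (minus strand), for Cfap52 at chr11:67965593-67965892 (minus strand), for Ak7 at chr12:105705732-105706031 (plus strand) and for Mlf1 at chr3:67373847-67374146 (plus strand).
Ccno: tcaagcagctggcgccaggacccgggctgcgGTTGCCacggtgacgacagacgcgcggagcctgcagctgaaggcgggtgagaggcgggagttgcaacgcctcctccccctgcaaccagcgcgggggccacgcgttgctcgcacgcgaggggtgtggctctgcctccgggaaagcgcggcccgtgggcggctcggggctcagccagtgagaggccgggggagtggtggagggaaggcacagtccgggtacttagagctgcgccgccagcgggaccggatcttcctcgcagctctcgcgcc
Rfx2: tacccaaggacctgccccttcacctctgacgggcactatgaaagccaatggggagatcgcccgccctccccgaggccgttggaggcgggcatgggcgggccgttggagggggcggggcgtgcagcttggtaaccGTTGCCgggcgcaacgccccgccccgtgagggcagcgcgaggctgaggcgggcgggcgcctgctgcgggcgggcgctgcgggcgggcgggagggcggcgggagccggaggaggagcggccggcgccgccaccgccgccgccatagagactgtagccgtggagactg
Cfap52: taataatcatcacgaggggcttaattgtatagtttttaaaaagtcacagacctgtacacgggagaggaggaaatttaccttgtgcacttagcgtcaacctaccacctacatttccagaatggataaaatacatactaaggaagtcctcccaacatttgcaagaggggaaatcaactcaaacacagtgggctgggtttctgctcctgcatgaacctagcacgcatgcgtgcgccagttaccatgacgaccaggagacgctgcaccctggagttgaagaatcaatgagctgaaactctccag
Ak7: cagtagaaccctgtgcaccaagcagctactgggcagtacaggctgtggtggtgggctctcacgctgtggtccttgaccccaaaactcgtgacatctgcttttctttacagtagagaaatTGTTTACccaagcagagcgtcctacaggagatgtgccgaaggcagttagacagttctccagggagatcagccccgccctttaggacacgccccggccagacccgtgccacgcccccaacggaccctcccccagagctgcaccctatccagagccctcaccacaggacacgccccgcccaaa
Mlf1: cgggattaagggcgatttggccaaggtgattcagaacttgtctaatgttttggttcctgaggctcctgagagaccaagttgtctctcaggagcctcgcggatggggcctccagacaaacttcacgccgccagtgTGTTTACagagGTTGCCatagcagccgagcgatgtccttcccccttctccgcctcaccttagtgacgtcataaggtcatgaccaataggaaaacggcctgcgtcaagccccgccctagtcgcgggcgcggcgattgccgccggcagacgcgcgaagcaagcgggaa
GTTGCC began 219 bases before the start in Ccno, 116 before it in Rfx2 and 105 before it in Mlf1. TGTTTAC began 131 bases before the start in Ak7 and 116 before it in Mlf1, a few bases upstream of GTTGCC. Cfap52 held none of the letters searched in this window. The 3 genes with higher bitransgenic lungs shared none of the letters searched.

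Dynein arm genes had the narrowest range of log2 changes among the groups of genes described here, -0.11 to 0.06 over 4 genes tested, and none passed the test. Dynlrb2, a roadblock-type dynein light chain, read 6093, 6228 and 6515 in the controls, compared with 5947, 5920 and 6256 in the bitransgenic lungs. The bitransgenic lungs reached into the control range from below, and the log2 change was -0.05 (95% interval -0.31 to 0.20, limma adjusted p = 0.927). Dnah9, an outer arm heavy chain, read 970.3, 1315 and 1198 against 1031, 1124 and 1035, with every bitransgenic value inside the control range and a log2 change of -0.11 (95% interval -0.46 to 0.25). Dnah11, the other outer arm heavy chain tested, had a log2 change of 0.03 (95% interval -0.38 to 0.44). The intervals of all 4 tested dynein arm genes lay within 1.5-fold. This bound and the range above are for 1 probe set per gene, and a second Dnali1 probe set gave -0.53 (95% interval -1.07 to 0.01).

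The inner arm light intermediate chain gene Dnali1 gave different values from its probe sets. The probe set with the higher signal read 1523, 1720 and 1637 in the controls, compared with 1395, 1598 and 2171 in the bitransgenic lungs, a log2 change of 0.06 (95% interval -0.34 to 0.45). The other read 611, 774 and 723 against 452, 309.9 and 666, where the highest bitransgenic lung lay above the lowest control, and gave -0.53 (95% interval -1.07 to 0.01, limma adjusted p = 0.531 over all probe sets). Their mean gave -0.24, so the sign for Dnali1 depends on the probe set. Dnah5, an outer arm heavy chain, lay below the filter, with signals of 131 to 257 over the 6 lungs.

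Genes of the axonemal ruler and the nexin link had small positive values and no call. Ccdc39 and Ccdc40 encode the coiled-coil ruler that sets the repeat along the doublets, and Drc1 a core protein of the nexin link. Ccdc39 read 2631, 2386 and 1636 in the controls, compared with 2720, 2609 and 2412 in the bitransgenic lungs, so control 3 alone stood low. Its log2 change of 0.24 (95% interval -0.17 to 0.64, limma adjusted p = 0.762) became -0.13 in a fit that carried the Actb ratio. Its probe set is of a type whose probes can match more than 1 transcript. Ccdc40 and Drc1 had log2 changes of 0.04 (95% interval -0.35 to 0.42) and 0.13 (95% interval -0.28 to 0.53).

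None of the 5 radial spoke genes tested was called, and they included the gene with the smallest spread within groups of the 30, Cfap206. Its product sits at the base of a spoke, and it read 1014, 1027 and 949 in the controls, compared with 869.8, 870.9 and 872.8 in the bitransgenic lungs. All bitransgenic lungs lay below all controls, but the log2 change was only -0.18 (95% interval -0.50 to 0.14, limma adjusted p = 0.772). Cfap206 kept a negative change in all 18 alternatives, from -0.23 to -0.14.

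The spoke-head gene Rsph1 leaned the other way. It read 1091, 1271 and 956 in the controls, compared with 1266, 1593 and 1313 in the bitransgenic lungs, so that only control 2 and bitransgenic 1 crossed. Its log2 change was 0.31 (95% interval -0.06 to 0.68, limma adjusted p = 0.619, n = 3 per group). The spoke-head genes Rsph4a and Rsph9 had changes of 0.18 (95% interval -0.26 to 0.61) and -0.05 (95% interval -0.54 to 0.43), and both turned sign without control 3. Lrrc23, a spoke protein, ran from 2355 to 2643 in the controls and from 2500 to 2794 in the bitransgenic lungs, a change of 0.06 (95% interval -0.23 to 0.35).

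The central apparatus genes had the largest median SE of the groups described here, 0.29 on the log2 scale over 3 genes tested, and none passed the test. Hydin, which encodes a large projection protein of the central pair, read 799, 591 and 953 in the controls, compared with 368, 783 and 855 in the bitransgenic lungs. Bitransgenic 1 alone lay below the controls, and the log2 change of -0.25 (95% interval -0.90 to 0.40) became 0.08 without it. Spag6l read 181, 311 and 394 against 160.1, 456 and 173, with both the lowest and the highest value in the bitransgenic group. Its log2 change was -0.19 with a 95% interval of -0.99 to 0.62. Spag16 had a change of 0.11 (95% interval -0.51 to 0.73). Spag17, another central apparatus gene, lay below the filter, at 99.2 to 199.7 over the 6 lungs. Of the genes nearest to the filter, which stood at a signal of about 251, Spata18 and Dnah5 lay just below it and Spag6l and Rfx2 just above.

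Among proteins of the doublets and of microtubules, Cfap52 stood apart from the other 5 genes tested. Cfap52 encodes a protein inside the doublet microtubules. It read 798, 693 and 393 in the controls, compared with 1001, 926 and 958 in the bitransgenic lungs. All bitransgenic lungs lay above all controls, with control 3 far below the other controls. The log2 change was 0.60 (95% interval 0.08 to 1.12, limma adjusted p = 0.43, n = 3 per group). Without control 3 it was 0.33, and it was 0.08 in a fit that carried the Actb ratio. A second Cfap52 probe set, below the filter, gave -0.02, so the size of the Cfap52 difference rests on 1 array and 1 probe set.

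The tektin genes, whose products form filaments inside the doublets, had log2 changes of 0.01 for Tekt1, -0.16 for Tekt2 and 0.16 for Tekt4, with limma adjusted p-values of 0.993, 0.855 and 0.853. Tekt2 read 489, 588 and 738 in the controls, compared with 506, 514 and 554 in the bitransgenic lungs, all inside the control range. The microtubule protein gene Tppp3 read 4360, 5340 and 4476 against 4114, 5400 and 3796, a log2 change of -0.10 (95% interval -0.47 to 0.27). Cfap126, which helps to position basal bodies, had the same change of -0.10 (95% interval -0.40 to 0.21).

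The other ciliated cell genes all had positive values, and none passed the test. Ak7, an adenylate kinase of motile cilia, read 4036, 3831 and 3016 in the controls, compared with 4087, 4603 and 4807 in the bitransgenic lungs. The groups did not overlap, but control 1 and bitransgenic 1 nearly met. The log2 change was 0.31 (95% interval -0.03 to 0.65, limma adjusted p = 0.576, n = 3 per group), and it was 0.19 without control 3. Ak8, a related kinase, had a change of 0.06 (95% interval -0.35 to 0.47).

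Mlf1, whose promoter letters are printed above, read 990.4, 1904 and 1437 in the controls, compared with 1485, 1824 and 1433 in the bitransgenic lungs. Control 1 was low, control 2 was the highest of all, and the log2 change was 0.16 (95% interval -0.34 to 0.66), or -0.07 without control 1. Cdhr3, a cadherin-related protein of ciliated cells, had a change of 0.20 (95% interval -0.27 to 0.67), as did Ccdc113, a protein of cilia and centriolar satellites (95% interval -0.29 to 0.70). Spata18, below the filter, ran from 139 to 379 over the 6 lungs.

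**Figure D2:**
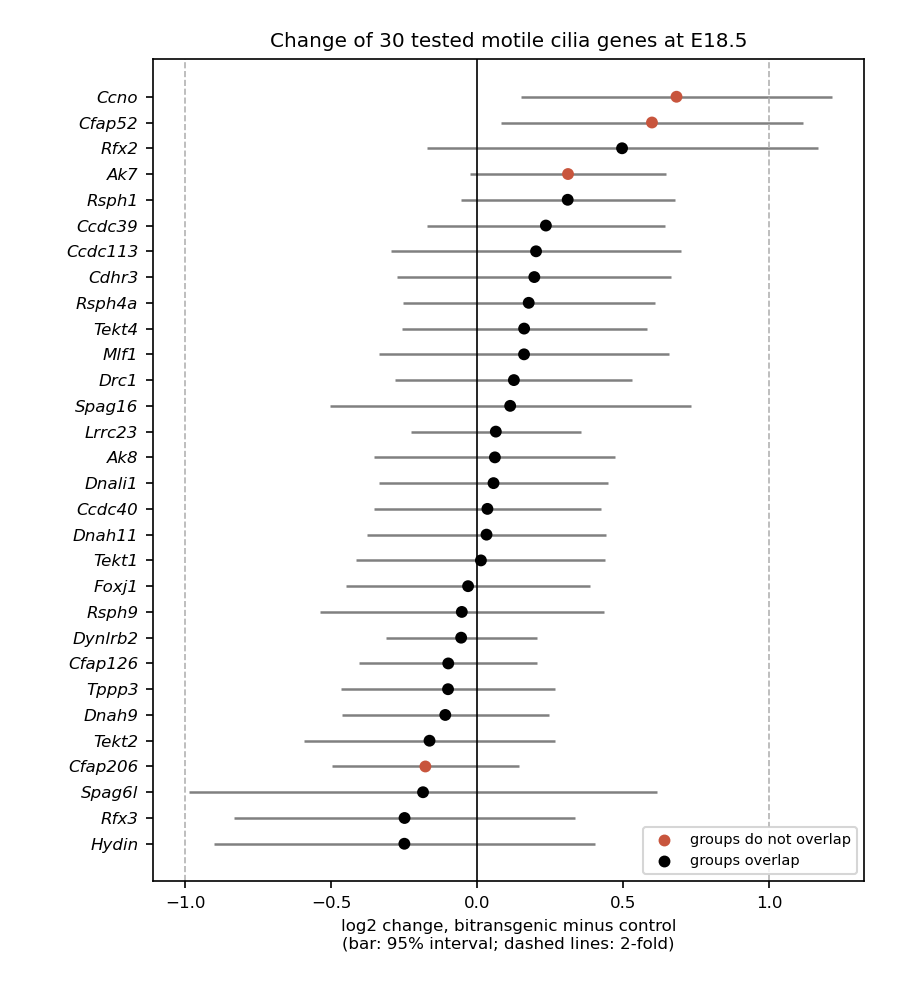
Log2 change (bitransgenic minus control) of the 30 tested motile cilia genes at E18.5, with points at the limma estimate and bars for the 95% interval, 3 lungs per group. Red points mark the 4 genes whose groups do not overlap, and the dashed lines mark 2-fold. On this scale, which includes the pseudocount, only the upper ends for Ccno, Cfap52 and Rfx2 pass those lines.

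Across single lungs the motile cilia genes shifted together by little. The median deviation of the 30 genes from their own 6-lung means was -0.14 in control 1, 0.02 in control 2 and 0.02 in control 3, and 0.00, 0.10 and 0.05 in bitransgenic lungs 1, 2 and 3. Control 1 held the lowest value of 10 of the 30 genes (33.3%, beside 17.9% over all genes) and the highest value of 1 (3.33%, beside 12.2%). Bitransgenic 2 held the highest value of 7 (23.3%, beside 9.18%). The spread within groups was that of other genes, with a median SD of 0.22 on the log2 scale beside 0.21 over all genes tested. The 30 signals summed to 43920 to 47820 in the controls and 45840 to 49090 in the bitransgenic lungs, ranges that overlap.

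**Figure D3:**
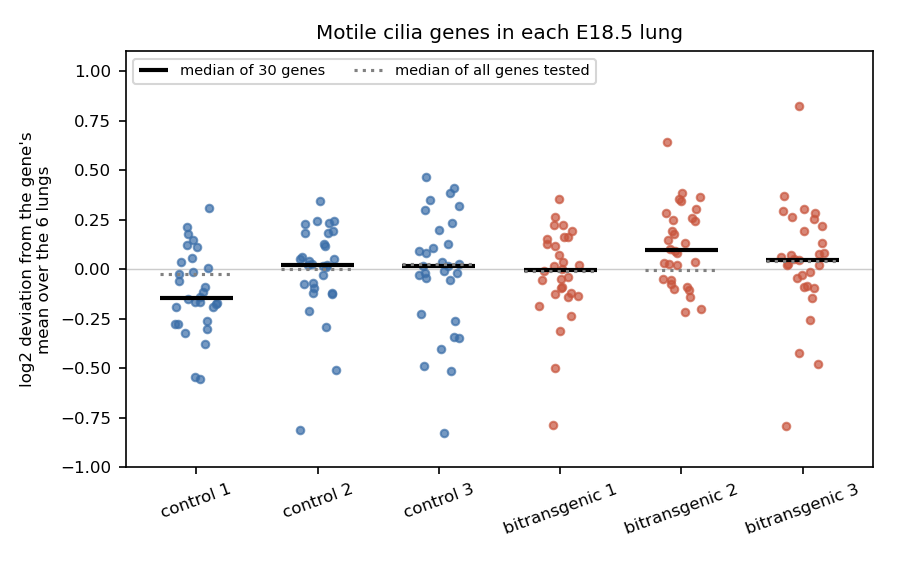
Log2 deviation of each of the 30 tested motile cilia genes from its own mean over the 6 E18.5 lungs, by lung, with black bars for the median of the 30 genes and dotted bars for the median of all genes tested. The median is lowest in control 1 (-0.14) and highest in bitransgenic 2 (0.10), and the lungs of both groups overlap.

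Other genes of the cilium, taken from 6 further lists, were also not called. Of 156 listed genes 119 were on the table and 102 were tested, with 0 called by limma, 9 at an unadjusted p under 0.05 (8.82%, beside 9.66% over all genes) and a median log2 change of 0.11. The groups did not overlap in 17 of the 102 (16.7%, beside 16.4% over all genes), 13 higher and 4 lower. The medians of the 6 lists ran from 0.01, for 16 radial spoke, central pair and nexin genes, to 0.16, for 10 regulators of multiciliation. Among those regulators, the smallest p-values were those of Foxn4, Deup1 and Rfx1, with limma adjusted p-values of 0.488 to 0.656. Their log2 changes were 0.50, 0.26 and -0.26, and the unadjusted limma p of Foxn4 was 0.0426. Foxn4 and Rfx1 are transcription factors, and Deup1 builds the deuterosome, the platform for centriole amplification.

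Dynein arm and docking genes had a median of 0.02 over 10 tested, from -0.61 for Dnah8 to 0.38 for the light chain gene Dnal1. Dnah8, a heavy chain best known from sperm, read 1447, 2459 and 1441 in the controls, compared with 1127, 965 and 1228 in the bitransgenic lungs, which all lay lower (limma adjusted p = 0.38). The 12 assembly factors had a median of 0.07, with Zmynd10 at 0.21, Spag1 at 0.29 and Cfap300 at 0.14. In the spoke, central pair and nexin list, Spef1, a central apparatus protein, had a log2 change of -0.46, and Dydc2 and Drc3 had changes of 0.60 and 0.17, with adjusted p-values of 0.38, 0.46 and 0.766. The list of 19 other axonemal genes had a median of 0.13, led by Cfap161 at 0.46, Tmem212 at 0.28 and Cfap65 at 0.24.

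Intraflagellar transport genes, which build both motile and primary cilia, had a median log2 change of 0.12, and none passed the test. Of 35 tested genes of this list, which includes the BBSome, a ciliary cargo coat, 23 were positive and 12 negative. The groups did not overlap in 7 of the 35 (16.4% over all genes), all 7 higher in the bitransgenic lungs (8.84% over all genes). Ttc26 read 780.5, 832 and 803 in the controls, compared with 1115, 1115 and 1273 in the bitransgenic lungs, a log2 change of 0.49 (95% interval 0.16 to 0.82, limma adjusted p = 0.268). Wdr35 read 1694, 1562 and 1281 against 2238, 2021 and 2229, a change of 0.50 (95% interval 0.17 to 0.83, limma adjusted p = 0.269). Traf3ip1, Ift140, Ift74, Ttc8 and Kifap3 had changes of 0.36, 0.33, 0.26, 0.22 and 0.16. These 35 genes summed to 68680 to 72520 in the controls and 74850 to 81020 in the bitransgenic lungs, ranges that did not meet. Such a sum is weighted towards the brightest genes of the list, and it was not tested.

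Among markers of other lung cells some were called. Of 9 alveolar type II markers tested 4 fell, among them the surfactant gene Sftpa1 with a log2 change of -4.45. Changes were negative for 7 of the 9 and positive for 2, Sftpc at 0.002 and Etv5 at 0.08. Of 8 alveolar type I markers 3 fell, with Aqp5, a water channel, at -3.65. All 8 type I changes were negative, and the smallest was that of Hopx at -0.15. The type II markers summed to 300300 to 337000 in the controls and 144800 to 187300 in the bitransgenic lungs, the type I markers to 252100 to 262800 and 189200 to 212000, and 8 endothelial markers, none of them called by limma (lowest adjusted p = 0.0933, 6 at an unadjusted p under 0.05, 6 called with array weights), to 69530 to 96970 and 51470 to 58500. Of 6 mesothelial markers 1 fell, Msln, at -1.61. Of 11 club and secretory cell markers, the closest airway neighbours of ciliated cells, 2 rose, Aldh1a7 at 0.77 (limma adjusted p = 0.00899) and Cckar at 1.04 (0.0315), while the secretoglobin gene Scgb1a1 had a change of -0.42 (0.188). The club list summed to 156900 to 191800 in the controls and 160600 to 178400 in the bitransgenic lungs, and the pan-epithelial list to 68680 to 77910 and 69710 to 78810. In the pan-epithelial list the groups did not overlap in 3 of 9 genes (16.4% over all genes), 2 higher, among them Epcam at 0.63, and 1 lower, Krt19 at -0.48. The 2 basal markers tested, Krt15 at -0.62 and Dlk2 at -0.36, summed to 1418 to 2123 in the controls and 887 to 1391 in the bitransgenic lungs. No gene of these 2 lists was called. Several of these calls depend on the processing. The type I count was 1 with median centring, with no filter, without the intensity trend and with the Actb covariate, and 1 without any single array other than bitransgenic 2. The club count was 1 with no filter, without the intensity trend, without control 1 and without bitransgenic 2, and 0 with the Actb covariate and without control 2, bitransgenic 1 or bitransgenic 3. The type II count was 2 with the Actb covariate and without control 2, and Msln was not called with that covariate or without control 2, bitransgenic 1 or bitransgenic 3. With array weights the counts were 7 for each alveolar list. The part of these values in the values of the cilia genes was not tested.

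**Figure D4:**
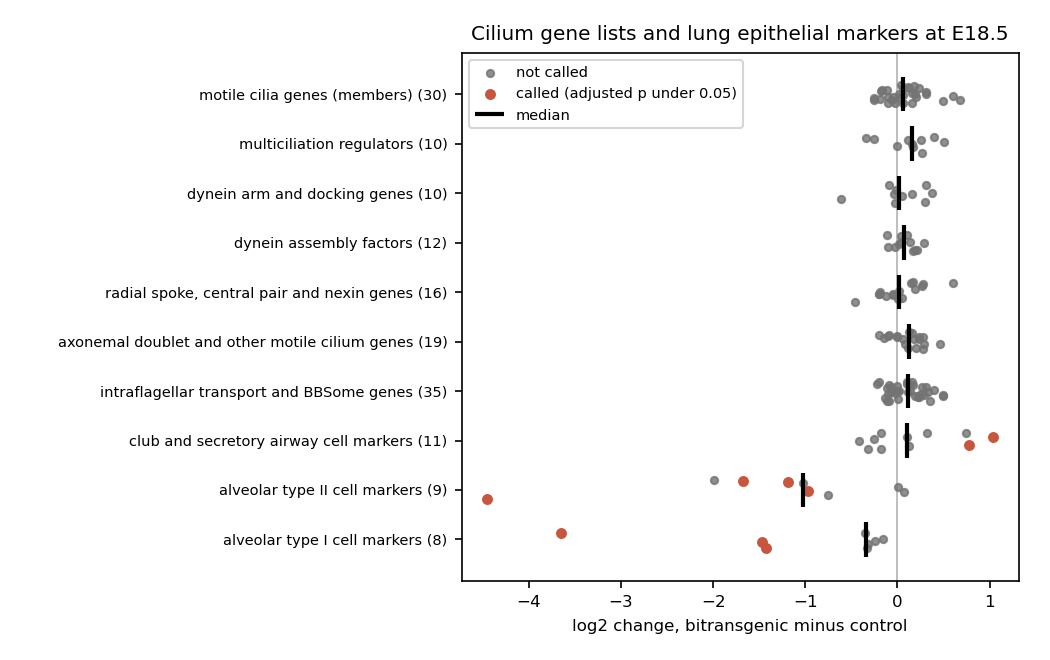
Log2 change (bitransgenic minus control) of every tested gene of the motile cilia list, the 6 other cilium lists and 3 lists of lung epithelial markers at E18.5, with the number of genes tested in brackets, black bars for list medians and red points for genes called by limma. No cilium gene is red, while 4 type II, 3 type I and 2 club markers are.

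At E11.5, before multiciliated cells are found in the airways, 9 of the genes were on the array, with 1 lung and 1 trachea array and hence no replicate check and no p-value. The higher signal passed the table median of 543 for 3 of the 9, Foxj1, Rsph1 and Lrrc23, and none of these 3 was over 2-fold apart, beside 185 of 5122 genes (3.61%) compared in the same way. Foxj1 read 597 in lung and 326 in trachea, a log2 ratio (lung over trachea) of 0.73. Rsph1 read 2083 and 1490 (0.46) and Lrrc23 read 1015 and 1024 (-0.01), each from a probe set of a type that may not be specific to its gene. A second Lrrc23 probe set, not of that type, read 44.1 in lung and 38.2 in trachea, far below the table median.

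The other 6 genes were dim, so their ratios depend on the pseudocount of 84.3 added before the logarithm. Tekt1 read 227 in lung and 118 in trachea (0.62), Mlf1 read 243 and 380.3 (-0.50) and Rfx2 read 247 and 341 (-0.36). Drc1 read 124 and 139 (-0.10), with a second probe set at 0.28, while Tppp3 at 49.2 and 33.4 and Tekt2 at 13.3 and 34.9 lay below the pseudocount in both tissues. The median log2 ratio of the 9 genes was -0.01, beside 0.01 over all named genes, with 4 higher in lung and 5 in trachea. Of 32 genes from the other cilium lists on this array, 25 passed the same minimum and 0 were over 2-fold apart. Intraflagellar transport genes held the ratio farthest from 0, that of the kinesin-associated gene Kifap3, at 1372 in lung and 2769 in trachea (-0.97). Kifap3 had 2 probe sets, and the one used is of a type that may not be specific to its gene. Markers of other cells were apart in both directions. Among 6 smooth muscle markers the median log2 ratio was -1.23, while 8 airway and pan-epithelial markers had a median of 0.47. Krt19 read 561 in lung and 19.4 in trachea, the trachea value below the pseudocount, from 1 of its 2 probe sets. Sox2 read 1016 and 4260, from a probe set that may not be specific to its gene. The surfactant gene Sftpc read 1503 and 257.

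**Figure D5:**
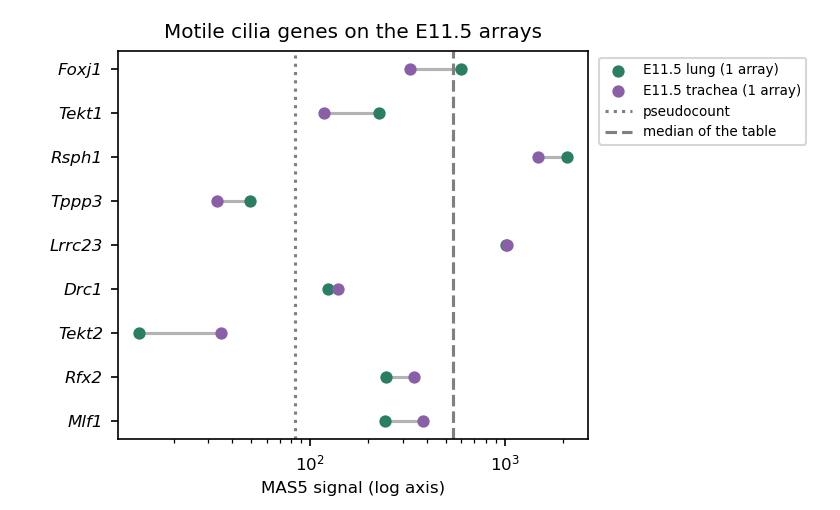
MAS5 signal on a log axis of the 9 motile cilia genes found on the E11.5 arrays, with 1 lung array (green) and 1 trachea array (purple), so there is no error estimate. The dotted line is the pseudocount and the dashed line the table median of 543, which Rsph1 and Lrrc23 pass in both tissues and Foxj1 in lung only.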

How the data were processed

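The deposited tables hold 1 intensity (MAS5 signal) per probe set and array, made by the authors with MAS5 per the submitters' processing notes, with no version stated. Every array of the deposited tables has a 2% trimmed mean of 1500 or 1501, as the values themselves show. No other columns of per-sample values were left unused. Control probe sets were left out (64 at E18.5, 66 at E11.5). Of 45037 E18.5 probe sets 34945 had 1 gene symbol in the array annotation, 932 several and 9160 none.

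Signals were taken as log2(signal + pseudocount), with the pseudocount at the 20th percentile of each table (86.4 and 84.3). Fold changes are on that scale and understate the change of low genes. Genes were tested when the mean log2 value reached the 40th percentile of all probe sets. Groups were compared with limma 3.58.1 (R 4.3.3), using lmFit and eBayes(trend), two-sided, with Benjamini-Hochberg adjustment over all genes tested. An exact permutation test of 3 against 3 arrays cannot go below 0.1 and was not used. E11.5 arrays had no replicates and no test. Replicate numbers follow the deposited order and pair nothing.

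The 34 genes, the other lists and the tests were chosen with earlier results of these data known. All listed genes are accounted for. For other lists, called genes or otherwise up to 3 of lowest p (or of largest E11.5 ratio) were picked. Not all of these are named, and some are given as counts. The neuroendocrine, smooth muscle, neural and proliferation lists held no called gene in the main E18.5 fit and are not described at that age. Among them, 2 of the 4 neural markers tested had an unadjusted limma p under 0.05. The 7 intraflagellar transport genes whose groups did not overlap and the set of printed promoters were chosen after the values were seen. Alternatives covered scaling, pseudocount, filter, probe set choice, variance model, array weights, an Actb ratio covariate and arrays left out.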

Additional observations from a re-analysis of the deposited data

How the results depend on the processing

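No motile cilia gene was called at E18.5 in 17 of 18 alternatives, the exception being array weights. With array weights 2 were called (1337 of all genes) and the median log2 change was -0.03; that estimation stopped short of its tolerance. All genes called numbered 20 with the Actb ratio covariate, 183 without control 3 and bitransgenic 3, and 22 to 97 with 1 array left out (lowest without control 2, and 33, 55 and 36 when bitransgenic 1, 2 or 3 was left out). The count of genes whose groups did not overlap was 6 to 8 of 30 with 1 array left out and 9 without control 3 and bitransgenic 3, beside 21.9% to 29.3% and 43.4% of all genes. With fewer arrays such a gap is easier to reach by construction.

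Of the 30 genes 13 kept their sign in all alternatives run and 17 changed it in some. Turned signs came to -0.01 for Tekt1 with median centring, and to 0.03 for Dnah9, -0.24 for Dnali1 and 0.04 for Hydin with the mean of all probe sets. With array weights they came to -0.04 for Rsph4a, -0.07 for Dnah11, -0.11 for Dnali1, -0.19 for Tekt1 and -0.10 for Mlf1. With the Actb covariate they came to 0.16 for Foxj1, 0.02 for Tppp3, -0.18 for Rsph4a, 0.25 for Rsph9, -0.13 for Ccdc39, 0.01 for Dnah9, -0.25 for Dnah11, 0.62 for Spag6l, 0.09 for Tekt2 and 0.21 for Hydin. Without control 3 and bitransgenic 3 they came to 0.01 for Foxj1, -0.09 for Dnah11, -0.11 for Dnali1, 0.17 for Spag6l and -0.01 for Tekt1. With 1 array left out the changes ran from -0.04 to 0.16 for Ccdc40, -0.12 to 0.14 for Tekt1, -0.07 to 0.37 for Mlf1, -0.03 to 0.14 for Ak8, -0.18 to 0.11 for Foxj1, -0.02 to 0.31 for Rsph4a, -0.22 to 0.09 for Rsph9, -0.07 to 0.11 for Dnah11, -0.55 to 0.02 for Spag6l, -0.44 to 0.08 for Hydin, -0.05 to 0.38 for Spag16, -0.44 to 0.09 for Rfx3 and -0.12 to 0.19 for Dnali1. At E11.5 the mean of all probe sets turned Lrrc23 to 0.03 and Drc1 to 0.09. None of the values that turned sign had been called, and the cause was not tested. No paired analysis was possible because the replicate numbers follow the deposited order only.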

Other observations

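The GTTGCC letters were also counted in the promoter windows of the other lists, a tabulation chosen after the share among the motile cilia genes had been seen. They occurred in 55 of 122 genes with a window in the 6 other cilium lists (45.1%), beside 14.1% of all genes with a window. By list the share was 58.3% for dynein assembly factors, 57.7% for axonemal doublet and other motile cilium genes, 43.8% for intraflagellar transport and BBSome genes, 42.9% for radial spoke, central pair and nexin genes, 33.3% for multiciliation regulators and 31.2% for dynein arm and docking genes. In the 11 marker lists of other cell types the letters occurred in 5 of 61 genes (8.2%), among them 0 of 7 club cell markers and 2 of 7 alveolar type I markers. The median GC content of the windows was 56.7% for the cilium lists and 58.0% for the marker lists. The full X-box-like pattern occurred in 4 of the 122 cilium genes (3.28%), 2 of them assembly factors and 2 of them intraflagellar transport or BBSome genes, and in 0 of the 61 marker genes. These are shares of letters in fixed windows, given as a description.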
